A study of Homo sapiens with 20 samples.

Results

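The clustered protocadherins are 53 genes that lie side by side on the long arm of human chromosome 5, here GRCh38 chr5:140786136-141512977. They were taken as every gene whose symbol begins PCDHA, PCDHB or PCDHG and whose start falls in this region, which gave 15 alpha, 16 beta and 22 gamma genes of the 62703 genes in the bulk count tables. The group was proposed because it had been seen higher as a block in GPX2 KO cells, that is, it was chosen by the KO and WT levels of these same files, so every difference between KO and WT below is a description. Counts of genes past a threshold in KO against WT are printed beside the same share over all genes, and nothing is read from them.

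Clustered protocadherins are cell-surface proteins of the cadherin superfamily that bind their own kind on neighbouring cells. They are best known from neurons, where each cell uses a few of them and so carries its own surface identity. Each alpha and gamma gene has its own large first exon with its own promoter, which is spliced to constant exons shared by the whole cluster, while a beta gene is a single exon with no constant part. The C-type genes at the ends of the alpha and gamma clusters (PCDHAC1, PCDHAC2, PCDHGC3, PCDHGC4 and PCDHGC5) are used more broadly among neurons than the others. In the annotation used by the authors the constant exons covered 2869 bases in the alpha genes and 2177 bases in the gamma genes. Read pairs that lay in exon bases shared by several genes were not assigned, so the bulk values come from unshared bases, a median of 50.5% of the exon bases of an alpha gene, 94.7% of a beta gene and 56.2% of a gamma gene. PCDHA1 had 7 unshared bases and 0 counts in every bulk library.

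The cells, labelled HUES8, a human embryonic stem cell line, were differentiated towards endoderm as WT or as GPX2 KO, in which the whole gene of the glutathione peroxidase GPX2 had been deleted with CRISPR/Cas9. The methods of the study describe the KO as clonal lines made in iCas9-HUES8, a HUES8 line whose Cas9 is switched on by doxycycline, while the labels give HUES8 for WT and KO alike. At day 6 the RNA of posterior foregut (PFG) cells was sequenced in 2 WT and 2 KO libraries, named here E and F after their columns. The treatment label of these libraries is foregut endoderm, but their titles carry the mark sp, which the day 8 libraries of spontaneous differentiation carry too. At day 8 of spontaneous differentiation from definitive endoderm there were 2 libraries each, numbered 5 and 8, of WT, WT with H2O2 (10 nM in the labels), KO, and KO with sodium selenite (100 pM). For H2O2, a passage of the methods gives the dose in µM instead of nM. The genotype tag of the day 8 KO libraries reads WT, and their titles gave the group. Both untreated KO columns of the day 8 table are named ko1, while the titles are ko1 and ko2, so they were tied to the group and not to a clone. Single-cell RNA was read from 1 WT and 1 KO library at the pancreatic endoderm (PEN) stage of day 8 and at the stem cell-derived β cell (SC-β) stage of day 21, and ATAC-seq peaks from 1 merged list per genotype at day 8 of spontaneous differentiation. The study's text names clonal line KO1 for much of its RNA work and KO2 for ATAC-seq, so the loss of GPX2 and the history of a clone cannot be told apart.

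GPX2 itself was counted in all libraries. At day 6 it stood at 3.85 and 5.65 CPM (counts scaled to the library totals and TMM factors) in KO libraries E and F and at 17.7 and 7.58 in the WT libraries, with 55 counts in both KO F and WT F. At day 8 it stood at 25.9 and 25.2 CPM in KO, 37.6 and 40.5 in KO with selenium, 98.0 and 117 in WT and 139 and 118 in WT with H2O2. All libraries labelled KO therefore had lower GPX2 values than the WT libraries of their day, and none had 0 counts, although the study describes a deletion of the whole gene. Totals ran from 7315509 to 9725172 counts at day 6 and from 4234408 to 8617728 at day 8. The spread between replicates was wider at day 8, with a biological coefficient of variation of 0.302 against 0.0949.

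Protocadherin RNA was low, and PCDHB5, a beta gene, led it. Per kb of unshared exon, PCDHB5 had 4.56 ± 0.485 CPM (SD, n = 2) in WT at day 6, ahead of PCDHGB7 at 2.86 ± 0.300, PCDHB2 at 2.39 ± 0.0725 and PCDHB15 at 2.36 ± 0.249. The levels of PCDHB2 and PCDHB15 differed by less than the spread between libraries. In WT at day 8 PCDHB5 had 8.24 ± 0.166 CPM per kb, PCDHA12 had 3.85 ± 0.512 and PCDHGC3 had 3.35 ± 2.65, and the last 2 did not differ beyond their spread. The order of the genes was similar on both days, with a Spearman correlation of 0.89 in WT and 0.91 in KO across 52 genes, which share libraries and depth within a day.

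PCDHB5 lies at chr5:141135206-141138615 on the plus strand and had the clearest difference between the genotypes. At day 6 it stood at 44.8 and 43.4 CPM in the KO libraries and at 14.3 and 12.3 in the WT libraries. At day 8 it stood at 52.2 and 42.6 CPM in KO and at 45.9 and 43.2 in KO with selenium. The WT libraries had 23.6 and 24.3 CPM and the WT libraries with H2O2 had 27.2 and 20.1. No KO library fell into the range of the WT libraries on either day. The log2 fold change of KO against WT was 1.73 (SE 0.14) at day 6 and 0.98 (SE 0.22) at day 8. PCDHB5 made up 10.2% to 12% of the summed CPM of all 53 genes in WT at day 6 and 23.5% to 25.4% in KO. At day 8 the share was 15.2% to 20.5% over the 4 WT libraries with and without H2O2 and 26.0% to 28.4% over the 4 KO libraries with and without selenium.

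**Figure D1:**
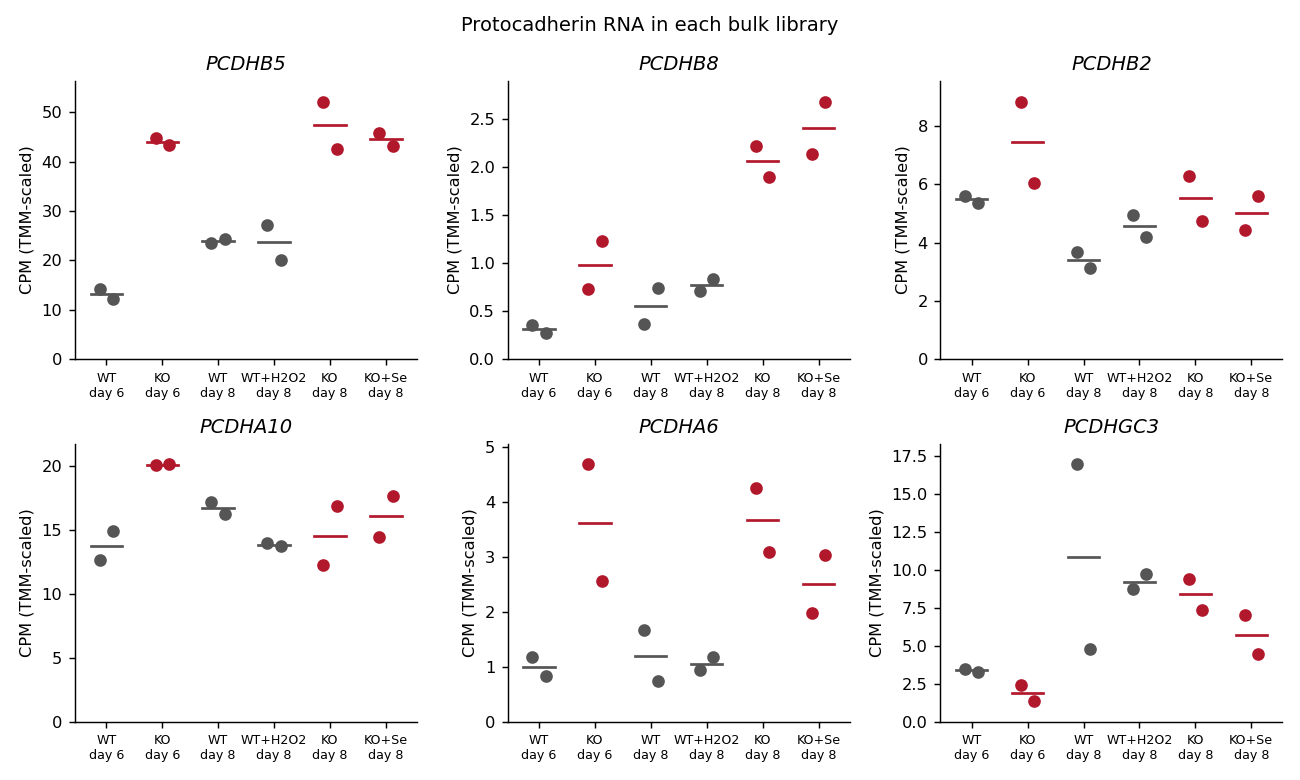
Each panel plots 1 gene, with the CPM of each of the 12 bulk libraries as a point and the mean of the group as a line, WT groups in grey and KO groups in red. PCDHB5 and PCDHB8 lie higher in every KO library than in the WT libraries of the same day, while PCDHGC3 at day 8 has its highest point in WT library 5, at 17.0 CPM.

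The promoters of 4 beta genes are shown. PCDHB5 had the clearest difference between the genotypes, and at PCDHB8 and PCDHB16 an ATAC-seq peak stood at the start in the KO list alone. PCDHB2, shown beside them, had no difference that held over all data. Its KO libraries lay above the untreated WT libraries in bulk on both days, with a log2 fold change at day 6 of 0.44 (SE 0.27). In single cells of the SC-β stage it was lower in KO. Each window holds 250 bases before and 50 after the RefSeq start in GRCh38.p14, on the plus strand. Capitals mark CGCT, the core of a sequence element known from protocadherin promoters, on either strand.
PCDHB5, chr5:141134956-141135255: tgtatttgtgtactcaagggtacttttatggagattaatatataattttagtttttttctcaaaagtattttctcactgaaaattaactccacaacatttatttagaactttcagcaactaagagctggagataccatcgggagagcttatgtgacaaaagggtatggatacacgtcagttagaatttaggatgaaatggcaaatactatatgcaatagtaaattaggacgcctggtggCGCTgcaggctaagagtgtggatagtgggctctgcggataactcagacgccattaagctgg
PCDHB2, chr5:141094365-141094664: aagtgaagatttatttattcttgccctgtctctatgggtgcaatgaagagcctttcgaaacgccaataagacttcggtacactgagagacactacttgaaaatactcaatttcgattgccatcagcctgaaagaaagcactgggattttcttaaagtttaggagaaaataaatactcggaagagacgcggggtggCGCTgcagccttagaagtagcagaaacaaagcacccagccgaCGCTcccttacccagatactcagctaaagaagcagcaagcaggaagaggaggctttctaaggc
PCDHB8, chr5:141177540-141177839: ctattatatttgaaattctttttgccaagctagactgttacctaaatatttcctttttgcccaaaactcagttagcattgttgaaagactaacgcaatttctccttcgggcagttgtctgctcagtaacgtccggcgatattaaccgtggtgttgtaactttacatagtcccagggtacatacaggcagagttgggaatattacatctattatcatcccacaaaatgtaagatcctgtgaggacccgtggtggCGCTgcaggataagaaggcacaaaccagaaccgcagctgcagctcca
PCDHB16, chr5:141182137-141182436: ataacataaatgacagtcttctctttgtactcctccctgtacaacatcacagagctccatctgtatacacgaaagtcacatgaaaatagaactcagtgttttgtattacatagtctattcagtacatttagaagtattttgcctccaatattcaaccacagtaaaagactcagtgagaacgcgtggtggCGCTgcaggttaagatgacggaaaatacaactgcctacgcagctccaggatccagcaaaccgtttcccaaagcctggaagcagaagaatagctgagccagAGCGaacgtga

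The RefSeq promoter table held 52 windows of 47 of these genes. CGCT stood on either strand in 51 of the 52 windows, or 98.1%, against 70.0% of all 35116 windows of the same length. The longer run TGGCGCTGCAG was cut from the PCDHB5 window around its CGCT, after the printed windows were seen. It stood in 10 of the 14 beta windows, PCDHB5 among them, and in 0 of the 13 alpha and 25 gamma windows. The share was 0.0911% of all windows, which include those of the members. As the run came from a beta window, its count in the beta windows is a description only. The core of the CTCF motif, searched on both strands with free positions inside it, stood in 1 window, that of PCDHB9, or 1.92%, against 10.6% of all windows. TATAAA stood in 11.5% of the members' windows and in 11.5% of all windows. The members' windows had a median of 7.5 CG dinucleotides and a GC content of 40.7%, against 14 and 58.7% over all windows. A match describes letters in these windows only. A CTCF site whose letters differ from the core searched would be missed. The low CTCF share therefore does not show that these promoters lack such sites.

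At day 6, 26 of the 53 genes passed the filter on low counts, and only PCDHB5 passed an adjusted p of 0.05 in edgeR, as 0.383% of all 14633 genes tested did in either direction. The log2 fold change was above 0 for 20 of the 26 and below 0 for 6, and 48.8% of all genes were above 0. Both KO libraries lay above both WT libraries for 13 of the 26 and below them for 3, where 20% of all genes lay above and 19.8% below. The median log2 fold change was 0.37 over the 26 genes, and -0.01 over all genes. It was 0.56 over the 10 alpha genes tested, 0.28 over the 10 beta genes and -0.05 over the 6 gamma genes. Over the 49 genes with any count it was 0.57, with 36 of them above 0. Without a filter PCDHA6 and PCDHGA11 passed as well as PCDHB5. The share of all genes that passed in that fit is not given here, so nothing is read from this count. With 1 library left out the median log2 fold change was 0.36 to 0.61.

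At day 8, 25 of the 53 genes passed the filter, and 0 passed an adjusted p of 0.05 in edgeR, DESeq2 or limma-voom, as 0% of all 14470 genes did in edgeR. At an unadjusted p under 0.05 edgeR gave 3 of the 25, and 1.22% of all genes. The log2 fold change was above 0 for 17 and below 0 for 8, with 49.7% of all genes above 0, and the median was 0.42 against 0 over all genes. All 7 beta genes tested were above 0, from 0.49 to 1.86 with a median of 0.80. The median was 0.38 over 11 alpha genes and 0.02 over 7 gamma genes. Both untreated KO libraries lay above both untreated WT libraries for 10 of the 25 and below them for 2, where 13.5% and 13% of all genes did so. All 4 KO libraries, with and without selenium, lay above all 4 WT libraries for PCDHB5, PCDHB8, PCDHB3, PCDHA6 and PCDHGA11, and below them for 0 of the 25. Over all genes these shares were 0.981% and 0.815%. The fits of this paragraph left out the pairing of the samples by library number. With the numbers as a block, 0 of the 25 passed an adjusted p of 0.05 in edgeR as well. Of all 14470 genes very few then passed, as counted in the closing section, so nothing is read from this count.

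**Figure D2:**
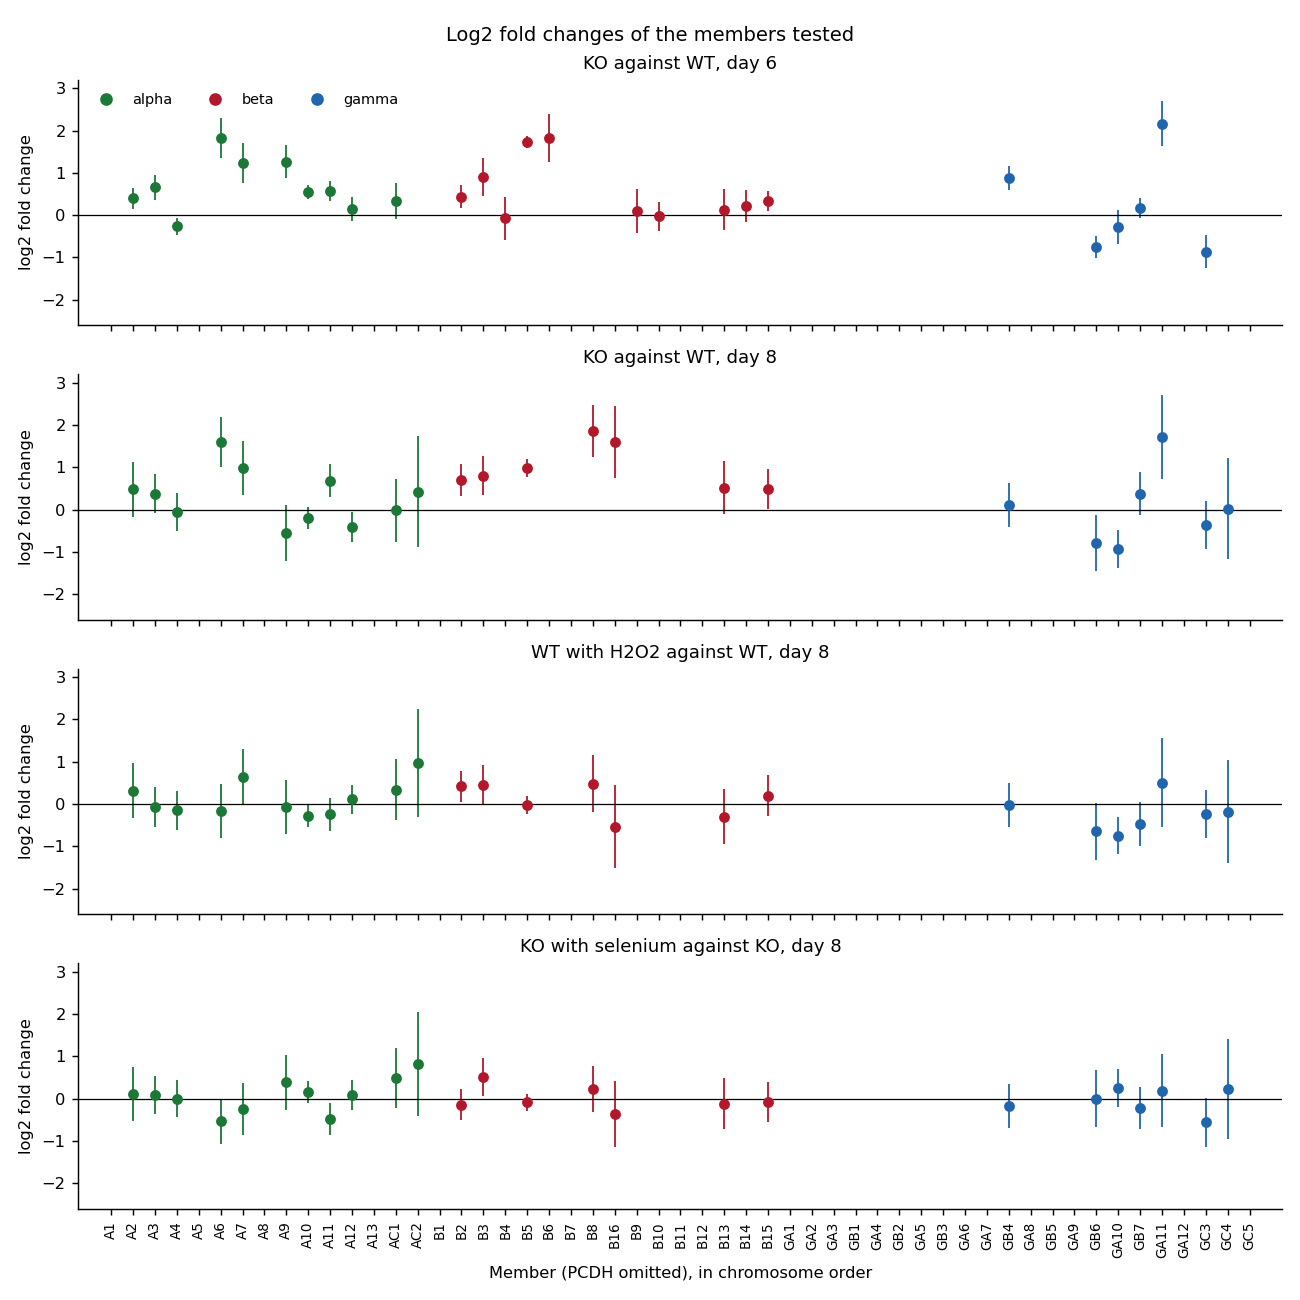
The log2 fold change of each gene that passed the filter is plotted with its standard error against its order along the chromosome, in 4 comparisons, with alpha genes in green, beta genes in red and gamma genes in blue; places without a point are genes that did not pass. The 7 beta genes tested at day 8 all lie above 0 in KO against WT, while the points of the H2O2 and selenium comparisons lie from -0.75 to 0.97.

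Summed over the whole beta cluster, the level was 80.8 ± 4.37 CPM (SD, n = 2) in KO and 40.9 ± 1.36 in WT at day 6, and 75.3 ± 13.6 and 40.5 ± 0.848 at day 8. Without PCDHB5, a sum added after its values were seen, the beta cluster had 36.7 ± 3.43 CPM in KO and 27.7 ± 2.77 in WT at day 6, and 27.9 ± 6.84 and 16.5 ± 0.365 at day 8. The lowest KO library stayed above the highest WT library in both of these smaller sums. Over all 53 genes the sum was 180 ± 13.7 CPM in KO and 120 ± 1.31 in WT at day 6, and PCDHB5 made up 50.8% of the difference. At day 8 it was 174 ± 33.9 and 137 ± 26.3, PCDHB5 made up 63.5% of the difference, and the libraries of the genotypes overlapped. In bulk samples, fewer cells of a type and less RNA per cell cannot be told apart.

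Among the other beta genes, PCDHB2 had 8.85 and 6.06 CPM in KO and 5.61 and 5.38 CPM in WT at day 6, and at 6.29 and 4.76 against 3.69 and 3.13 at day 8. Its KO libraries lay above the WT libraries on both days, by less than 1 CPM between the nearest pair at day 6, and its log2 fold change at day 6 was 0.14 to 0.69 with 1 library left out, lowest without KO library E. PCDHB15 had 12.4 and 8.93 CPM in the KO libraries and 7.83 and 9.10 in the WT libraries at day 6, where the groups overlapped. PCDHB8 was rare and had 12 and 8 counts in KO, 13 and 23 in KO with selenium, 2 and 4 in WT and 3 and 5 in WT with H2O2 at day 8. PCDHB16, its neighbour on the chromosome, had 19 and 4 counts in KO and 2 and 6 in WT, which overlapped. PCDHB6 had 15 and 0 counts in the KO libraries at day 8, the widest split of these, and 13 and 18 against 5 and 2 in WT at day 6.

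Of the alpha genes, PCDHA10 had the highest CPM. It had 20.1 CPM in each KO library and 12.6 and 14.9 in WT at day 6, with a log2 fold change of 0.55 (SE 0.16). At day 8 it had 12.2 and 16.9 CPM in KO and 17.2 and 16.2 CPM in WT, and the groups overlapped. PCDHA10 was thus higher in KO on one day and not on the other. PCDHA6 had 45 and 25 counts in KO and 10 and 6 in WT at day 6, and 23 and 13 against 9 and 4 at day 8, with log2 fold changes of 1.83 (SE 0.47) and 1.60 (SE 0.59). With 1 library left out these were 1.34 to 2.20, lowest without KO library E, and 1.14 to 2.29, highest without WT library 5. PCDHA4 had 9.16 and 8.42 CPM in KO and 9.82 and 11.3 CPM in WT at day 6, and its log2 fold change was -0.26 (SE 0.20). The alpha cluster summed to 67.7 ± 5.12 CPM in KO and 49.1 ± 1.14 in WT at day 6, and to 59.8 ± 12.2 and 55.3 ± 0.433 at day 8.

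The gamma genes went both ways. At day 6 PCDHGB6 had 5.72 and 4.00 CPM in KO and 7.83 and 8.55 CPM in WT, and the C-type gene PCDHGC3 at 2.39 and 1.33 in KO and 3.51 and 3.31 in WT. Both lay below the WT range, with log2 fold changes of -0.75 (SE 0.26) and -0.87 (SE 0.39). PCDHGA11 lay on the other side, with 28 and 22 counts in KO and 7 and 2 in WT and a log2 fold change of 2.16 (SE 0.53), which was 3.16 without WT library E and 1.64 without WT library F. At day 8 the gamma genes of WT library 5 stood apart from library 8. PCDHGC3 had 17.0 and 4.79 CPM in WT libraries 5 and 8, PCDHGA10 had 13.1 and 5.71, and PCDHGB6 had 8.86 and 2.21. The gamma cluster summed to 60.9 and 21.9 CPM in these libraries, and to 39.0 ± 7.98 CPM (SD, n = 2) in KO, so that both KO libraries lay inside the span of the WT pair. Of the other C-type genes, PCDHAC1 had 20 and 14 counts in KO and 13 and 9 in WT at day 6, and 17 and 4 against 15 and 8 at day 8, with overlap on both days. PCDHAC2 and PCDHGC4 had 11 and 14 counts over both KO libraries at day 8 and 9 and 15 over both WT libraries. PCDHGC5 was near the floor, with 4 counts over both WT libraries and 2 over both KO libraries.

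The comparison of KO with selenium and WT with H2O2 rests on other libraries than the untreated pair, but treatment and genotype differ together in it. The log2 fold change was above 0 for 20 of the 25 genes and below 0 for 5, with 49% of all genes above 0 and a median of 0.26 against -0.01. PCDHB5 had a log2 fold change of 0.92 (SE 0.21), and all 7 beta genes tested were above 0, with a median of 0.87. Both KO libraries with selenium lay above both WT libraries with H2O2 for 9 of the 25 and below them for 2, where 8.91% and 8.41% of all genes did so. In edgeR, DESeq2 and limma-voom 0 of the 25 genes passed an adjusted p of 0.05, as 0% of all genes did in edgeR, where 2 of the 25 had an unadjusted p under 0.05, as 0.829% of all genes did.

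Within a line, H2O2 and selenium moved no protocadherin past the test. These comparisons did not choose the genes, but they share the untreated libraries with the comparison that did. With H2O2 in WT, 10 of the 25 genes had a log2 fold change above 0 and 15 below 0, where 50.4% of all genes were above 0, with a median of -0.06 against 0 over all genes and a range from -0.75 to 0.97. The sign of this median was not stable, with 0.26 without WT library 5, 0.06 without treated library 8 and -0.26 without treated library 5. With selenium in KO, 12 were above 0 and 11 below, where 52.3% of all genes were above 0, with a median of 0.00 against 0.01 and a range from -0.56 to 0.82, and the median was 0.29 without KO library 5 and -0.17 without KO library 8. In both comparisons 0 of the 25 passed an adjusted p of 0.05 in edgeR, DESeq2 or limma-voom, as 0% of all genes did in edgeR. At an unadjusted p under 0.05 edgeR gave 0 of the 25 in both, and 0.898% of all genes with H2O2 and 0.995% with selenium. These fits left out the pairing of the samples by library number. With the numbers as a block, 0 of the 25 passed an adjusted p of 0.05 in edgeR in both comparisons as well. Very few of all genes then passed with H2O2, as counted in the closing section, so nothing is read from these counts. A p that misses the threshold does not show that the levels were equal.

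PCDHB5 changed by -0.02 (SE 0.22) on the log2 scale with H2O2 in WT and by -0.09 (SE 0.21) with selenium in KO, each with an adjusted p of 1 in edgeR. PCDHA10 stood at 13.9 and 13.7 CPM with H2O2 against 17.2 and 16.2 without, which did not overlap, with a log2 fold change of -0.27 (SE 0.26) and an adjusted p of 1 in edgeR. PCDHGA10 had the lowest log2 fold change with H2O2, -0.75 (SE 0.44), and WT library 5 alone set it apart, since without that library the value was -0.03. With H2O2, both treated libraries lay above both untreated ones for 3 of the 25 genes and below them for 1, where 10.6% and 10.1% of all genes did so. With selenium these counts were 2 and 3, where 10.8% and 11.7% of all genes did so. PCDHGC3 was among the 3, with 7.07 and 4.44 CPM with selenium and 9.44 and 7.37 without, a log2 fold change of -0.56 (SE 0.58).

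In single cells the summed level of all 53 genes was lower in KO at the SC-β stage, while at the PEN stage its direction depended on the rounding of the deposited values. With 1 library per genotype there is no replicate check. The 95% intervals are exact for UMIs that are independent of each other and cover counting error only. At the PEN stage UMIs of some genes came together in cells. In WT, PCDHA4 had 73 UMIs in 25 cells, while PCDHB5 had 30 in 26 cells. Intervals of genes such as PCDHA4, and of sums that hold them, are therefore too narrow at that stage. At the PEN stage, 1701 WT and 1837 KO cells with medians of 1040 and 836 UMIs gave summed protocadherin levels of 353 and 320 CPM (here UMIs scaled to the library total), with a KO over WT ratio of 0.907 (0.826 to 0.995). At the SC-β stage, 6128 WT and 5611 KO cells with medians of 5638 and 8061 UMIs gave 122 and 98.6 CPM, a ratio of 0.811 (0.778 to 0.845). At the SC-β stage the ratio was 0.679 for the alpha cluster, 1.10 (1.03 to 1.18) for the beta cluster and 0.599 for the gamma cluster. PCDHB5 carried the beta value: without it, an alternative added after its values were seen, the beta cluster had 1433 UMIs in WT and 1545 in KO, a ratio of 0.858 (0.798 to 0.922), and all genes together had a ratio of 0.723. At the PEN stage the ratios of the alpha, beta and gamma clusters were 0.989, 0.815 and 0.685, with 0.694 for the beta cluster without PCDHB5. Over all genes, 10.2% and 10.5% of the deposited PEN values were fractions of UMIs that fitted several genes, such as those sharing constant exons. The loss was larger for the protocadherins. Rounding took the 53 genes from 1745 to 1014 UMIs in WT and from 1601 to 834 in KO. It took the gamma genes from 325 to 153 in WT and from 314 to 95 in KO. With the fractions kept the ratio was 1.01 over all 53 genes and 1.06 over the gamma genes. At the SC-β stage the deposited values were whole UMIs, so this check could not be made there. How UMIs from the constant exons bear on the SC-β ratios of the alpha and gamma clusters and of all 53 genes was not tested. GPX2 had 4 UMIs in WT and 1 in KO at the PEN stage, and 109 and 46 at the SC-β stage.

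PCDHB5 was higher in KO at the SC-β stage, where WT had 108 UMIs of it and KO 595, and the ratio was 4.38 (3.57 to 5.43). At the PEN stage WT had 30 and KO 42, a ratio of 1.54 (0.943 to 2.55) whose interval includes 1. The C-type gene PCDHAC1 was the 1 gene of the 24 with at least 20 UMIs at the PEN stage whose interval lay above 1. It had 31 UMIs in 18 WT cells and 50 in 29 KO cells, a ratio of 1.78 (1.11 to 2.88). As its UMIs came together in cells, this interval is too narrow. At the SC-β stage its ratio was 0.626 (0.451 to 0.866). PCDHB2, with the most UMIs at the SC-β stage, had 828 in WT and 751 in KO, a ratio of 0.722 (0.653 to 0.798). PCDHA10, with the most UMIs at the PEN stage, had ratios of 1.18 at the PEN stage and 0.769 at the SC-β stage. PCDHGB6 had 28 UMIs in WT and 10 in KO at the PEN stage after rounding, a ratio of 0.394. At the SC-β stage it had 394 and 166 UMIs and a ratio of 0.335. All PEN values of single genes are after rounding, and their ratios with the fractions kept were not computed. For the gamma genes together the direction turned with the rounding.

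Of the 24 genes with at least 20 UMIs at the PEN stage, 4 were at least 1.5 times higher in KO and 8 at least 1.5 times lower, where 9.06% and 14% of all genes were. Of the 37 at the SC-β stage, 3 were higher and 14 lower, where 13.7% and 16% of all genes were. The 3 were PCDHB5, PCDHB6 with 8 UMIs in WT and 35 in KO, and PCDHGA1 with 14 and 58. The median ratio was 0.742 at the PEN stage and 0.760 at the SC-β stage, against 0.970 and 0.937 over all genes. The counts and the median of the PEN stage are after rounding. They were not computed with the fractions kept, so their direction may depend on the rounding. PCDHA2 had the lowest ratio at the SC-β stage, 0.165, with 53 UMIs in WT and 11 in KO. Thinned to 5000 UMIs per cell, 43.1% of 3985 WT cells and 37.3% of 5066 KO cells held a UMI of at least 1 of the 53 genes, with 2143 and 545 shallower cells left out. Without thinning, 48.4% and 52.7% of all cells did. The share that free RNA in the droplets could give was not tested.

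**Figure D3:**
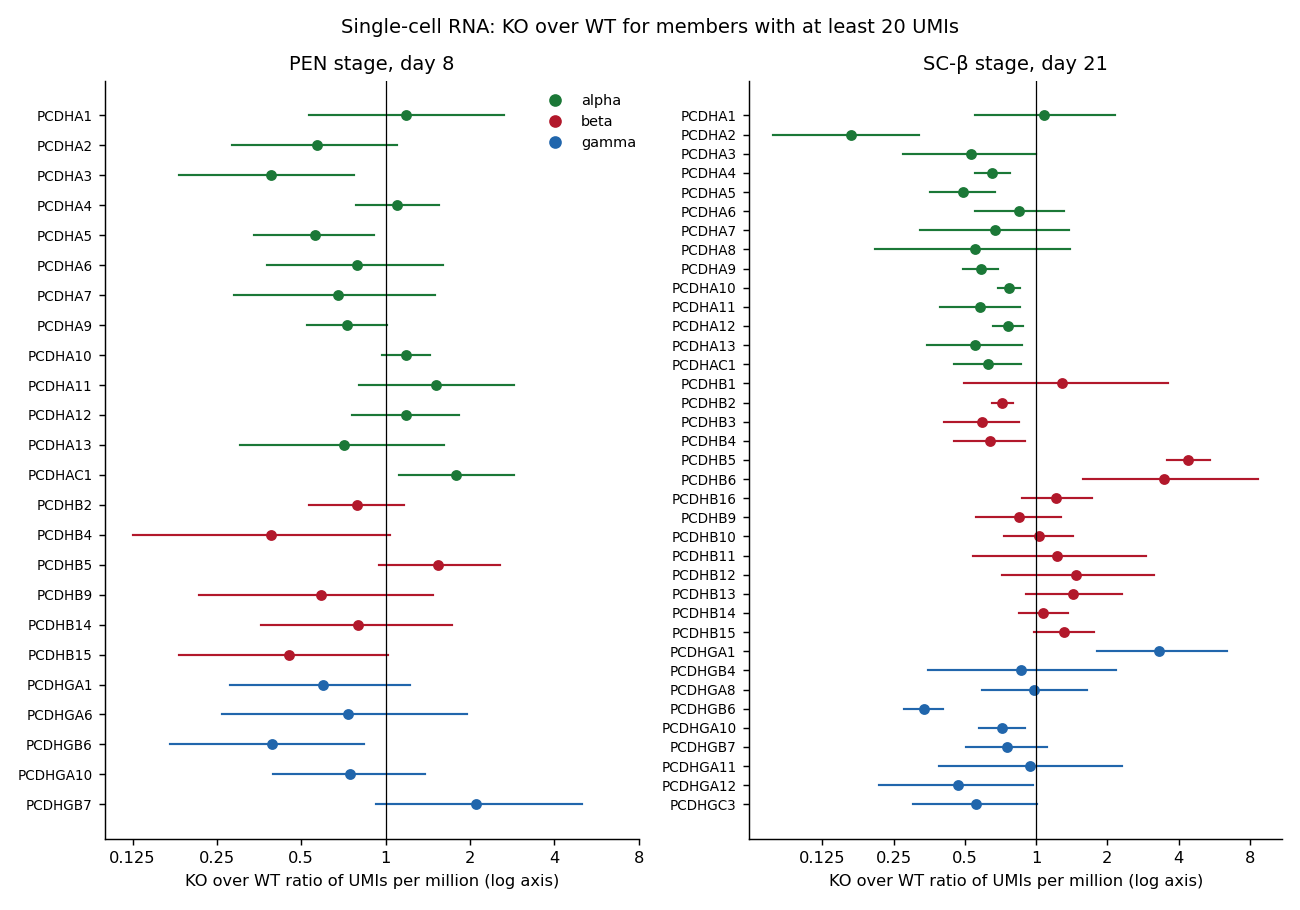
The KO over WT ratio of UMI-based CPM is plotted on a log axis with its 95% counting interval for each gene with at least 20 UMIs, at the PEN stage on the left and the SC-β stage on the right, with alpha genes in green, beta genes in red and gamma genes in blue. At the SC-β stage 12 of 37 ratios lie above 1, and PCDHB5 lies farthest above 1, at 4.38. The PEN ratios are from rounded values.

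The libraries differed in their cells at both stages. At the PEN stage the definitive endoderm markers (SOX17 and FOXA2) summed to 220 CPM in WT and 127 in KO. The lower of the 2 had 3.48 CPM in WT and 13.8 in KO, and the higher had 216 and 113. The 2 markers thus went opposite ways. Neural markers summed to 88.5 and 63.0 and mesenchyme markers to 15 and 29.6, with 1 of the 4 neural markers at 0 in WT. Their part in the PEN ratios was not tested. At the SC-β stage markers of hepatic cells (FGB, APOA1 and AFP) summed to 140 CPM in WT and 1526 in KO, markers of mesenchyme (COL1A1, COL3A1 and PDGFRB) to 4.96 and 47.4, endocrine markers (CHGA, CHGB, INS, GCG and SST) to 22843 and 32585 and neural markers (SOX2, TUBB3, ELAVL3 and STMN2) to 576 and 416, and 1 of the 3 mesenchyme markers was at 0 in WT. In cells with at least 5 CHGA UMIs per 10000, 2675 in WT and 1845 in KO, PCDHB5 had a KO over WT ratio of 3.76 (2.69 to 5.38), and in the remaining cells 4.58 (3.52 to 6.06). The ratio of PCDHB5 was thus about as large on each side of this cut, which is a range of a score and not a cell type, with 1349 WT and 408 KO cells at 3 to 7 CHGA UMIs per 10000. PCDHGB6 was 2.00 times higher in the CHGA-high than in the other cells of WT (1.62 to 2.46) and 1.46 times higher in KO (1.06 to 2.00). Its KO over WT ratio was 0.304 in CHGA-high cells and 0.417 in the others. The cell barcodes of the SC-β libraries overlapped in 7 cases, and those of all other pairs in 0.

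Genes with an ATAC-seq peak at their start in both lists had a higher median RNA level than those without. A peak covered part of the window from 250 bases before to 50 after the start given in the count table in both lists for 26 of the 53 genes, in the KO list alone for 4, in the WT list alone for 1 and in neither for 22. Among all genes of the count table the shares were 36.5% in both lists, 2.22% in the KO list alone and 3.21% in the WT list alone. Among the 14470 genes tested at day 8, which held 25 of the 53, they were 84.3%, 1.14% and 1.75%. The level in WT at day 8 had a median of 0.613 CPM per kb over the 26 genes with a peak in both lists, 0.233 over the 4 in the KO list alone and 0.0699 over 21 with a peak in neither. PCDHA11, at 1.81 CPM per kb, had the highest level of those without a peak in this window, but its RefSeq start lies 774 bases further on, and at that start both lists held a peak. The same was true of PCDHA9, whose RefSeq start lies 610 bases further on. With RefSeq starts for the 47 genes that have one, an alternative added after the peaks were seen, 28 genes had a peak in both lists and 20 in neither, and the other counts stayed at 4 and 1.

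**Figure D4:**
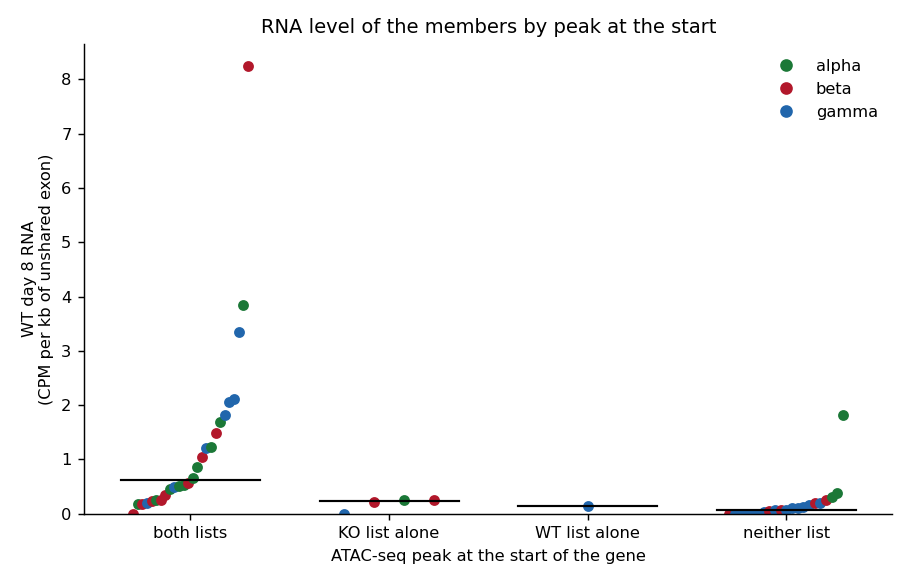
The level of each gene in WT at day 8, in CPM per kb of unshared exon, is plotted by whether an ATAC-seq peak stood at its start, with the median of each class as a black line. Genes with a peak in both lists have a median of 0.613 and reach 8.24, that of PCDHB5.

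The genes with a start peak in the KO list alone were PCDHA8, PCDHB8, PCDHB16 and PCDHGA3, and PCDHGB1 had one in the WT list alone. The fold over background was 3.37 at PCDHB8, 2.93 at PCDHB16, 2.48 at PCDHGA3, 3.12 at PCDHA8 and 2.08 at PCDHGB1, where the median over the whole list was 2.61 in KO and 2.53 in WT. At PCDHA8 the WT list also held a peak, with a fold of 3.48, centred 353 bases after the start and inside the span of the KO peak, but outside the window. PCDHB8 and PCDHB16, whose promoters are printed above, are neighbours in the beta cluster. Over the whole first exon, PCDHA5, PCDHB8, PCDHB16 and PCDHGA3 had a peak in the KO list alone and PCDHB11 and PCDHGB1 in the WT list alone. PCDHB5 had a peak at its start in both lists, 1192 bases wide in WT with a fold of 3.91 and a -log10 q of 6.89, and 1807 bases wide in KO with a fold of 4.64 and a -log10 q of 14.7. The highest fold of the region was 7.66, at PCDHA2 in WT, where the KO peak had 5.56.

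**Figure D5:**
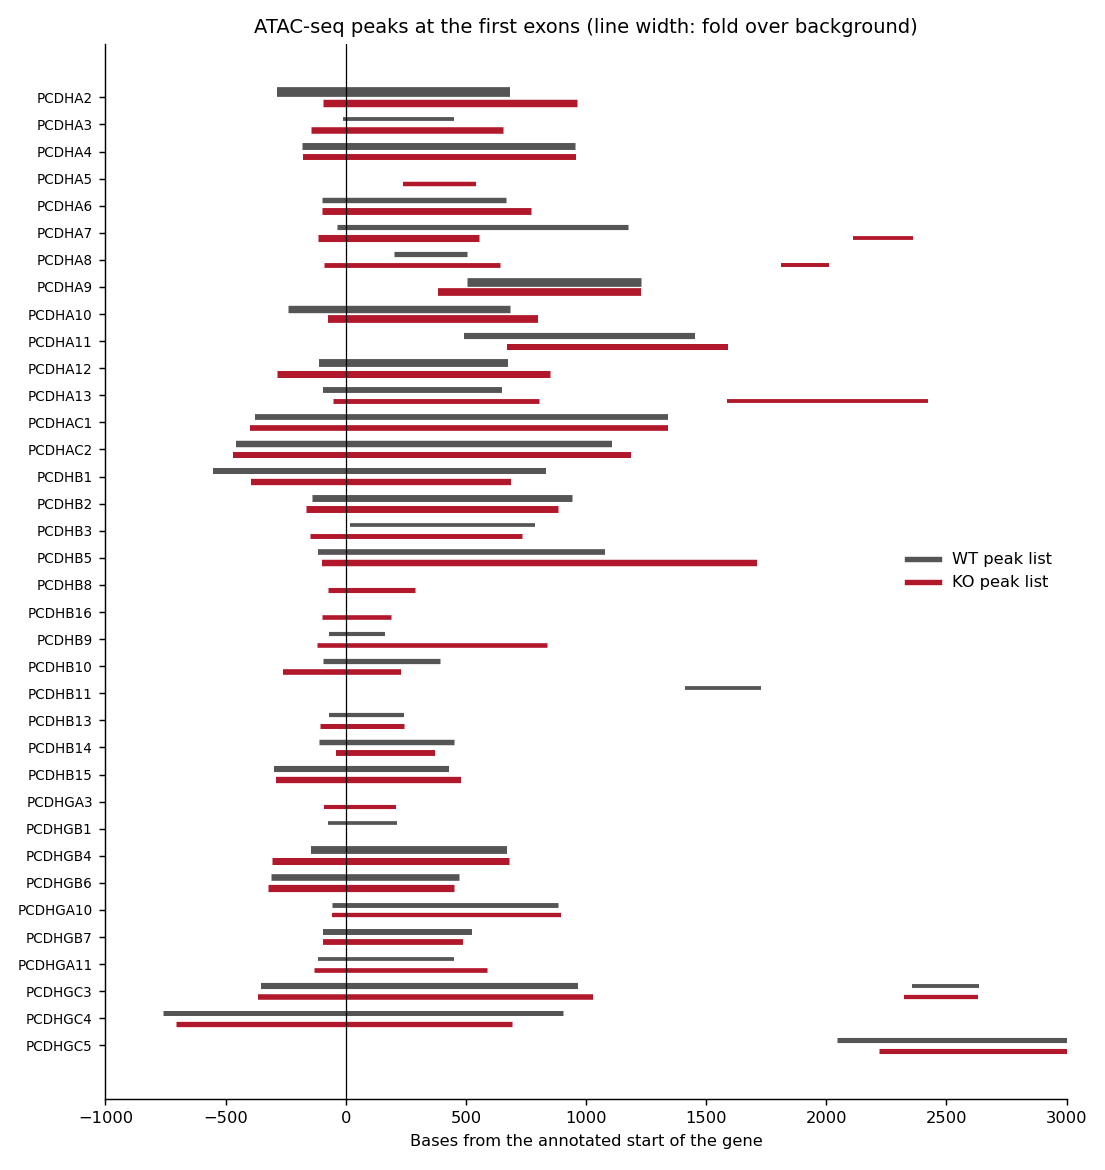
Each row is a gene with a peak in its first exon in either list, with WT peaks in grey and KO peaks in red drawn to scale by their distance in bases from the start of the gene, and a line that is wider for a higher fold over background. PCDHB8 and PCDHB16 have a KO peak at their start and no WT peak, and the KO peak of PCDHB5, 1807 bases, is wider than its WT peak, 1192 bases.

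Across the region the WT list held 49 peaks over 5.72% of the bases and the KO list 52 over 6.06%. In each list 41 peaks overlapped a peak of the other by at least 1 base, which left 8 in WT alone and 11 in KO alone. Shared peaks made up 83.7% of the region's WT peaks and 78.8% of its KO peaks, against 75.3% and 83.5% over the genome. The authors called peaks on merged libraries, so no spread between replicates can be given.

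Of the genes beside the clusters, 0 passed the test, where 0.383% of all genes did at day 6 and 0% at day 8. With so few calls over all genes, this count does not show that the levels were equal. TAF7, a subunit of the general transcription factor TFIID that lies between the beta and gamma clusters, had log2 fold changes of KO against WT of 0.15 (SE 0.08) at day 6 and 0.08 (SE 0.15) at day 8. Of the neighbours tested, 13 before the clusters had medians of 0.00 and 0.01 at day 6 and day 8, and 9 and 10 after them had medians of 0.00 and -0.12, with 0 past an adjusted p of 0.05 in edgeR. The nearest of them were HARS, HARS2 and ZMAT2 on one side and DIAPH1, HDAC3 and RELL2 on the other.

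Genes known to act on protocadherin promoters were measured as well. CTCF, which forms the loops at these promoters, had log2 fold changes of 0.04 at day 6 and -0.06 at day 8, the chromatin protein SMCHD1 had -0.13 and -0.33, the DNA methyltransferase DNMT3B had 0.05 and 0.49, and the zinc finger protein ZNF274 had 0.10 and -0.04. In the lists of 14 cohesin, CTCF and loop genes, 19 methylation and silencing factors and 17 intracellular partners, 0 genes passed an adjusted p of 0.05 in edgeR in KO against WT on either day. Of 11 non-clustered protocadherins, 8 were tested on each day, 0 passed and the medians were -0.10 and -0.16, and 0 of the classical cadherins tested, 7 at day 6 and 8 at day 8, passed. Over all genes 0.383% passed at day 6 and 0% at day 8, so these counts do not show that the levels were equal.

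Neural markers summed to 130 and 142 CPM in KO and 117 and 121 in WT at day 6, and to 163 and 192 against 114 and 158 at day 8. Of the 12 genes on this list 4 were tested at day 6 and 6 at day 8, 0 passed, the medians were 0.22 and 0.19, and 3 and 1 were at 0 in all libraries of the day. Mesenchyme markers had medians of -0.12 and -0.27, pluripotency markers 0.05 and 0.53, with 0 past the test, and of the definitive endoderm markers HHEX alone passed, at day 6, with a log2 fold change of -1.19 (SE 0.17) and an adjusted p of 0.0329 in edgeR. Over all genes 0.383% passed at day 6 and 0% at day 8. The part of these markers in the protocadherin levels was not tested.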

How the data were processed

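The deposited bulk files hold raw read counts per gene, which the authors made with featureCounts 2.0.1 on Ensembl release 108 of GRCh38 at day 8, per the file headers, on paired reads without strand or multi-gene assignment. The day 6 table has no header. The methods of the study give fastp, STAR and featureCounts on Ensembl GRCh38 for both days, with an older featureCounts than the day 8 header names. The PEN matrices hold expected counts, in which the authors' ScaleBio pipeline split a UMI over the genes it fitted, as deposited, and they were rounded here to whole numbers. The SC-β matrices hold UMI counts from Cell Ranger, with 8911 barcodes in WT and an unfiltered 1285152 in KO. The peak lists give MACS2 fold over background (a ratio), −log10 q and a score, as the authors called them on merged libraries. The deposited gene length column was used only for exon coordinates.

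Counts were tested with edgeR 4.0.16 (quasi-likelihood, TMM, filterByExpr, R 4.3.3), with 1 fit for the 4 day 6 libraries and 1 for the 8 day 8 libraries, and p-values were adjusted by Benjamini and Hochberg over all genes tested. DESeq2 1.42.0 and limma-voom (limma 3.58.1) were alternatives. The fit was tested on simulated data. Nothing in the labels says that replicates came from separate cultures, so p-values measure the spread between these libraries. At day 8, libraries with the same number deviated together in all 6 pairs of groups (correlations from 0.329 to 0.677), so the column numbers 5 and 8 pair the samples. The day 8 standard errors, p-values and shares over all genes in the Results come from the fit without this pairing. A fit with the numbers as a block is given in the closing section. PEN cells had at least 200 genes and under 5% mitochondrial UMIs, SC-β cells 1500 to 5000 genes and under 15%. No doublet caller was run. Ratios have exact conditional 95% intervals, which take UMIs as independent of each other. The 4 most abundant genes of each cluster on each day, the C-type genes and genes with a first-exon peak in 1 genotype were to be named. So were the 5 genes with most UMIs and the nearest neighbours. PCDHA6, PCDHA2, PCDHA9, PCDHB6, PCDHB8, PCDHGA1 and PCDHGA11 were added after their values were seen. Members, lists and rules were chosen with earlier results of these data known.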

Additional observations from a re-analysis of the deposited data

How the results depend on the processing

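At day 6 the count of protocadherins past the adjusted p in KO against WT rose from 1 to 3 without a filter (PCDHA6, PCDHB5 and PCDHGA11). It rose to 4 with a replicate block by library letter, chosen after seeing the data (the same 3 and PCDHA10). The shares of all genes called in these fits are not given here, so the rise is not read as a result about the protocadherins. The deviations of libraries with the same letter had a correlation of 0.243 in the 1 pair of groups, too few pairs to show that the letters pair the samples. The count of calls also moved with 1 library left out, but such fits keep 1 library in a group, so only their fold changes are given. The median log2 fold change at day 6 was 0.61 with a filter of 0.5 CPM in at least 1 library, and 0.36 to 0.61 with 1 library left out. Leaving out 1 library at day 8 gave medians of 0.25 to 0.58 for KO against WT and, for KO with selenium against WT with H2O2, 0.09 to 0.80, the highest without WT H2O2 library 5. It turned the sign of the medians with H2O2 (-0.26 to 0.26) and with selenium (-0.17 to 0.29). It also turned the sign of PCDHA10 in KO against WT (-0.45 to 0.01, the last without KO library 5), of PCDHB5 with H2O2 (-0.25 to 0.18, the last without treated library 8) and of PCDHB5 with selenium (-0.24 to 0.06, the last without KO library 5). The replicate block by library number left 0 protocadherins called in all 4 day 8 comparisons and changed no other call of them, while over all genes edgeR with the block gave 2 calls for KO, 26 for H2O2, 0 for selenium and 1 for KO with selenium against WT with H2O2, against 0 without it. At the PEN stage the fractions as deposited gave a KO over WT ratio of 1.01 over all 53 genes and of 1.06 over the gamma genes, against 0.907 and 0.685 after rounding, which removes the small fractions of UMIs that fit several genes. At the SC-β stage CHGA-high cells alone, an added alternative, gave 0.762, and the sum without PCDHB5, also added, gave 0.723 over all genes and 0.858 over the beta cluster, against 1.10 with it. With only peaks of -log10 q of at least 5, the region held 32 WT peaks, 3 of them in WT alone, and 6 KO peaks in KO alone. With 500 bases either side of the start, 2 genes had a peak in WT alone, 5 in KO alone, 27 in both and 19 in neither. The cause of these shifts was not tested. Of the other values, 112 counts, medians and sums moved by less than 1.5 times or less than the spread between replicates or the counting interval, and 212 values of single genes or clusters stayed on their side of the threshold or inside their counting interval, with the PEN ratio of the alpha cluster going from 0.989 to 1.03 with the fractions kept. Few counts per gene limit the comparisons of all protocadherins but PCDHB5 and PCDHA10.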
